A study of Mus musculus with 6 samples.

Results

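The genes described here are 10 members of the carbonic anhydrase family, *Car1*, *Car2*, *Car3*, *Car4*, *Car7*, *Car8*, *Car9*, *Car11*, *Car12* and *Car13*, taken by symbol from the 23366 genes of the count tables. They were chosen with the comparison of mutant with wild type libraries in view, in which *Car2* was nearly absent from the mutants, and the question was which family members remained. Their levels and fold changes in that comparison are therefore a description, given without p-values, and where a count says how many of them the fit across all genes called, that count is no evidence for them. The tables hold 6 further genes of the family, *Car5a*, *Car5b*, *Car6*, *Car10*, *Car14* and *Car15*, so that 16 were followed in all. Of the 10 genes, *Car2*, *Car8*, *Car9*, *Car12* and *Car13* passed the filter on low counts, and these 5 entered the fit across all genes. *Car3*, *Car7* and *Car11* had too few counts for it, and *Car1* and *Car4* had 0 counts in all 6 libraries.

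RNA was sequenced from small intestine epithelium of mouse embryos at embryonic day 13.5 (E13.5), with 3 libraries of the genotype Shh-cre-egfp:Tcf7l1 lox/lox, referred to as mutant, and 3 of wild type, numbered 1 to 3 in each group. The mutants express Cre recombinase from the *Shh* locus, which is active in the gut epithelium, and carry 2 *Tcf7l1* alleles whose exon 6 is flanked by loxP sites. TCF7L1 is a transcription factor of the WNT pathway that acts mainly as a repressor. Each library was made from polyA RNA of 500 living cells sorted for EpCAM, a surface protein of epithelial cells, without treatment, and its cDNA was amplified for 15 PCR cycles. The wild type embryos are not said to carry Cre or floxed alleles, so the effects of the Cre allele cannot be told apart from those of *Tcf7l1* deletion. The litter, sex and background of the embryos, and whether embryos were pooled, are not given in the sources used here. P-values for other genes come from a test that sets the difference between the groups against the spread between these libraries.

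The total counts lay between 18216537 and 20397278. *Tcf7l1* had 476, 474 and 364 normalized counts in wild type 1, 2 and 3, against 41.4, 33.0 and 73.0 in mutant 1, 2 and 3, which fits the labels. *Shh*, whose locus carries Cre, had 412 to 543 normalized counts in the wild type and 184 to 224 in the mutant libraries. *Xist* had 0 counts in the 3 wild type libraries and 229 to 424 in the mutants, whereas *Ddx3y*, *Eif2s3y*, *Uty* and *Kdm5d* of the Y chromosome had 0 counts in every mutant library and at least 283 in each wild type library. Sex and genotype can thus not be told apart in any comparison given here. The 10 epithelial markers, among them *Epcam*, *Cdh1* and *Cdx2*, together made up 8427 to 8973 CPM (counts scaled to library size) in wild type, against 8215 to 8428 in mutant libraries. Of these 10 genes, 3 were called lower by the rule given below, *Cdh1*, *Krt18* and *Cdx2*, where 5.83% of all tested genes were. In bulk samples of this kind, fewer cells of a type and less RNA per cell cannot be told apart.

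Carbonic anhydrases are zinc enzymes that turn carbon dioxide and water into bicarbonate and a proton, and back. In the gut they serve the secretion of acid and bicarbonate and the uptake of salt, and each isoform works in its own place. CAR2, the product of *Car2*, is a very fast enzyme of the cytosol, CAR9 and CAR12 hold their active site outside the cell, and CAR8 and CAR11 belong to a group of related proteins that keep the fold of the enzyme and have lost its activity.

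The zinc ion is held by 3 histidines, and the coding sequence around them is shown for the gene that was lost, the cytosolic gene that remained, and *Car11*, a member without activity. The stretches were read from the GENCODE annotation of mm9 (release vM1), run 5′ to 3′ along the coding strand across an exon junction, and cover 93 bases each. Capitals mark the 3 zinc-binding histidine codons of *Car2* and the codons aligned with them in the other genes.
Car2: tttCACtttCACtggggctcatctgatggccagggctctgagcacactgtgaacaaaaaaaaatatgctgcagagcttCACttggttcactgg
Car13: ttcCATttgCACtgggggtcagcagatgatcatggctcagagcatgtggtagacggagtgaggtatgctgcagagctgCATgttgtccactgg
Car11: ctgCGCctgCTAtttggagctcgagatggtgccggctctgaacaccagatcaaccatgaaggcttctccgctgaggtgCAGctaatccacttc

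In *Car2* the codons in capitals are numbers 94, 96 and 119 of 260, and the stretch spans chr3:14895066-14895552 on the plus strand, in exons 3 and 4. *Car13* has histidine codons at all 3 places, and its stretch spans chr3:14650703-14654901 on the plus strand, also in exons 3 and 4. *Car11* has no histidine codon at these places, where it reads CGC, CTA and CAG, and its stretch spans chr7:52957915-52958220 on the plus strand in exons 4 and 5. The codons of *Car1*, *Car3*, *Car4*, *Car7*, *Car9* and *Car12* stand for histidine at all 3 places. Over the whole coding sequence, the encoded residues were identical to those of *Car2* for 56.5% of the aligned codons in *Car13*, 58.3% in *Car1*, 56.9% in *Car3* and 33.3% in *Car11*.

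*Car2* (ENSMUSG00000027562) lies on chromosome 3 from 14886426 to 14900769 of mm9, on the plus strand, and no exon of another gene overlaps its exons. The deposited counts were 452, 384 and 364 reads in wild type 1, 2 and 3, against 1, 0 and 5 reads in mutant 1, 2 and 3. After TMM normalization these were 424, 358 and 346 in the wild type and 1.04, 0 and 5.53 in the mutant libraries. The groups were far apart, and mutant 3 alone held 5 of the 6 mutant reads. The mean normalized count fell from 376 ± 41.9 (SD, n = 3) to 2.19 ± 2.94 (SD, n = 3), a log2 fold change of -7.38 with an SE of 0.43. The mutant level, from the summed counts and library sizes, was 0.568% of the wild type level, and the exact 95% interval of counting ran from 0.208% to 1.24%. Without mutant 3 it rested on 1 read and was 0.140%, within an interval of 0.00353% to 0.779%. The cDNA was amplified and read without molecular identifiers, so that these intervals cover counting error only. Mutant 3 was also the mutant library with the most *Tcf7l1*, and whether that bears on its *Car2* reads was not tested.

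*Car13* (ENSMUSG00000027555), for the other cytosolic enzyme that was measured well, lies 245 kb upstream of *Car2*, from 14641727 to 14663002 on the same strand. It had 427, 490.4 and 447 normalized counts in wild type 1, 2 and 3, against 322, 404 and 369 in mutant 1, 2 and 3. All 3 mutant libraries were lower than any wild type library, with a small gap between the groups. The means were 455 ± 32.6 and 365 ± 41.0 (SD, n = 3 each), a log2 fold change of -0.32 with an SE of 0.15. *Car13* therefore kept 80.2% of its wild type level where *Car2* kept 0.568%.

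The remaining cytosolic genes were at or close to 0. *Car1*, which encodes a slower cytosolic enzyme known from red blood cells and colon, had no reads, and a count of 0 allows up to 3 reads in a library, which is 0.143 to 0.170 CPM here. *Car3*, best known from muscle and fat, had a single read in wild type 3 and 5 reads in mutant 2 and was at 0 in the other libraries. *Car7*, known from neurons and muscle, had 6 reads in wild type 3, 3 in mutant 1 and 7 in mutant 3 and 0 elsewhere. No direction was read from either gene at this depth.

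*Car9* encodes a membrane enzyme that is induced by low oxygen. Its normalized counts were 81.6, 89.5 and 39.0 in wild type 1, 2 and 3, against 119, 92.6 and 69.7 in mutant 1, 2 and 3. The groups overlapped, since mutant 3 lay below wild type 1 and 2. The log2 fold change was 0.42 with an SE of 0.35, and *Gm12454*, which runs on the other strand, shares 9.29% of its exon bases. The strand setting of the counting is not stated, so reads of the overlap cannot be assigned to either gene.

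*Car12* encodes a membrane enzyme of epithelia that secrete or absorb salt. It had 39.4, 126 and 36.1 normalized counts in wild type 1, 2 and 3, against 157, 129.9 and 115 in mutant 1, 2 and 3. Wild type 2 lay among the mutant libraries and the other wild type libraries far below them. The means were 67.1 ± 50.9 and 134 ± 21.5 (SD, n = 3 each), a log2 fold change of 1.0 with an SE of 0.40. This value rested on wild type 2, as without it the log2 fold change was 1.83. *Car4*, for a membrane enzyme anchored by a lipid, was at 0 reads in all 6 libraries.

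*Car8* (ENSMUSG00000041261), for the inactive relative that binds the IP3 receptor, is on chromosome 4 from 8070514 to 8166188, minus strand, and no other gene's exons overlap its own. Its normalized counts were 4564, 4466 and 4807 in wild type 1, 2 and 3, against 7805, 8054 and 7900.4 in mutant 1, 2 and 3. The libraries of each group lay close together and the groups were well apart. The means were 4613 ± 176 and 7919.8 ± 126 (SD, n = 3 each), a log2 fold change of 0.78 with an SE of 0.07. The mutant level was 172% of the wild type level. *Car11*, for another inactive relative, had 2, 10 and 11 reads in wild type and 1, 11 and 2 reads in mutant libraries, and its groups overlapped.

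**Figure D1:**
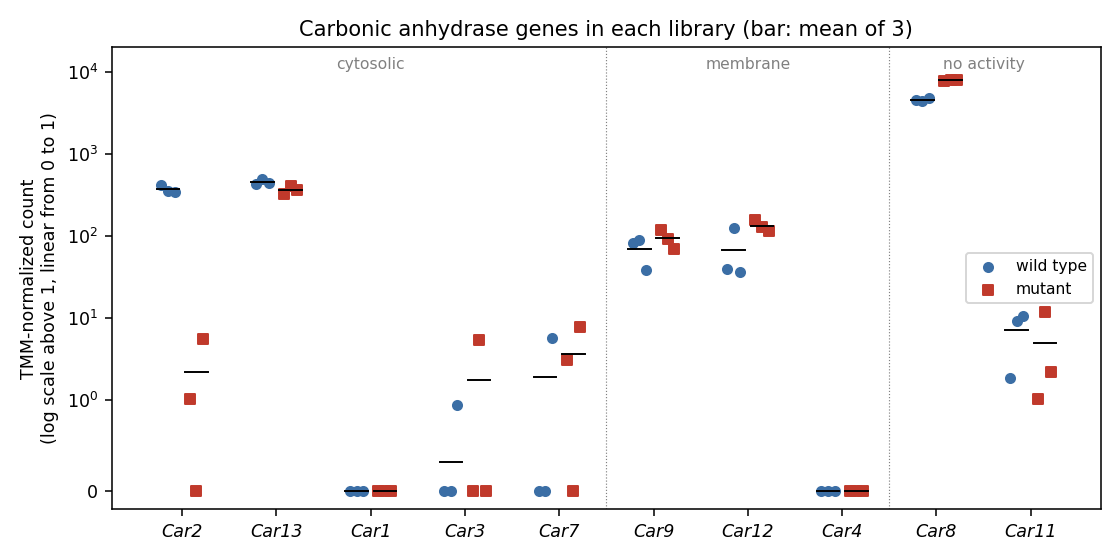
TMM-normalized counts of the 10 genes in each library (circles, wild type; squares, mutant; bars, means of 3), on an axis that is logarithmic above 1 and linear from 0 to 1, grouped by where the enzyme works or by its lack of activity. *Car2* dropped from 346 or more in the wild type to at most 5.53 in the mutant libraries, *Car8* stood highest in both groups, and *Car1* and *Car4* were at 0 in all 6 libraries.

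Genes were compared by edgeR's quasi-likelihood test, and p-values were adjusted by the Benjamini-Hochberg method over all genes tested. A gene was called higher or lower when its adjusted p was under 0.01, its log2 fold change was 0.5 or more in size and its normalized counts averaged 50 or more. Under this rule 2 of the 5 carbonic anhydrase genes in the fit were called, *Car2* as lower and *Car8* as higher, which restates the contrast they were chosen on. Of all 12501 genes tested, 8.62% were called, 5.83% as lower and 2.78% as higher. The groups were without overlap in *Car2*, *Car8* and *Car13*, which is 3 of the 5 genes, and in 43.0% of all tested genes. Nothing is read from these shares. The median log2 fold change was 0.42 over the 5 genes and -0.04 over all tested genes.

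Levels of different genes were compared as RPKM, the reads on a gene divided by its exon length and by the size of the library, computed here from the counts, the TMM library sizes and the union of each gene's exons. In the wild type, *Car8* led with 61.4 ± 2.34 RPKM (SD, n = 3). *Car2* followed with 10.8 ± 1.20 RPKM and *Car13* with 10.1 ± 0.725 RPKM, and these neighbours overlapped between libraries. *Car9*, at 1.56 ± 0.604 RPKM, *Car14*, at 1.39 ± 0.0531 RPKM, and *Car12*, at 0.757 ± 0.574 RPKM, came next and overlapped among themselves. All the other genes of the family had mean levels of at most 0.192 RPKM in the wild type.

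In the mutants the order per length was *Car8* at 105 ± 1.67 RPKM, *Car13* at 8.13 ± 0.913 RPKM, *Car9* at 2.08 ± 0.549 RPKM and *Car12* at 1.51 ± 0.242 RPKM. *Car9* and *Car12* overlapped between libraries, and *Car8* and *Car13* stood clear of their neighbours. *Car14* followed with 0.707 ± 0.251 RPKM. *Car2*, second by its mean in the wild type, where it overlapped with *Car13*, was at 0.0626 ± 0.0842 RPKM in the mutants. This was beside the trace levels of *Car3* (0.0603 RPKM) and *Car7* (0.0753 RPKM).

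The per-length levels of all 16 genes summed to 86.4 ± 0.62 RPKM in the wild type and 119 ± 2.95 RPKM in the mutant libraries, with *Car8* accounting for 71.0% of the sum in the wild type and 88.9% in the mutants. *Car2* made up 14.0%, 11.9% and 11.4% of this sum in wild type 1, 2 and 3 and at most 0.135% in a mutant library. The sum thus stood higher in the mutants, while that of the genes for active enzymes stood lower. Without *Car8*, *Car10* and *Car11*, the 13 genes for active enzymes summed to 25.7, 26.1 and 22.7 RPKM in wild type 1, 2 and 3, against 12.4, 14.4 and 12.3 RPKM in mutant 1, 2 and 3.

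Within the genes for active enzymes, *Car2* held 43.3% ± 3.92 and *Car13* 40.9% ± 3.54 of the wild type sum (SD, n = 3 each). In the mutants *Car13* held 62.2% ± 4.44, *Car9* 16% ± 4.65, *Car12* 11.7% ± 2.30, *Car14* 5.39% ± 1.81 and *Car2* 0.507% ± 0.682. With *Car2* taken out, the other 12 genes summed to 12.8 to 15.8 RPKM in wild type, against 12.2 to 14.4 RPKM in mutant libraries, so the groups overlapped. The cytosolic genes summed to 20.9 ± 0.841 RPKM in wild type, against 8.33 ± 0.971 RPKM in mutant libraries. The membrane genes summed to 2.73 to 4.89 RPKM and 3.74 to 5.02 RPKM, with overlap.

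**Figure D2:**
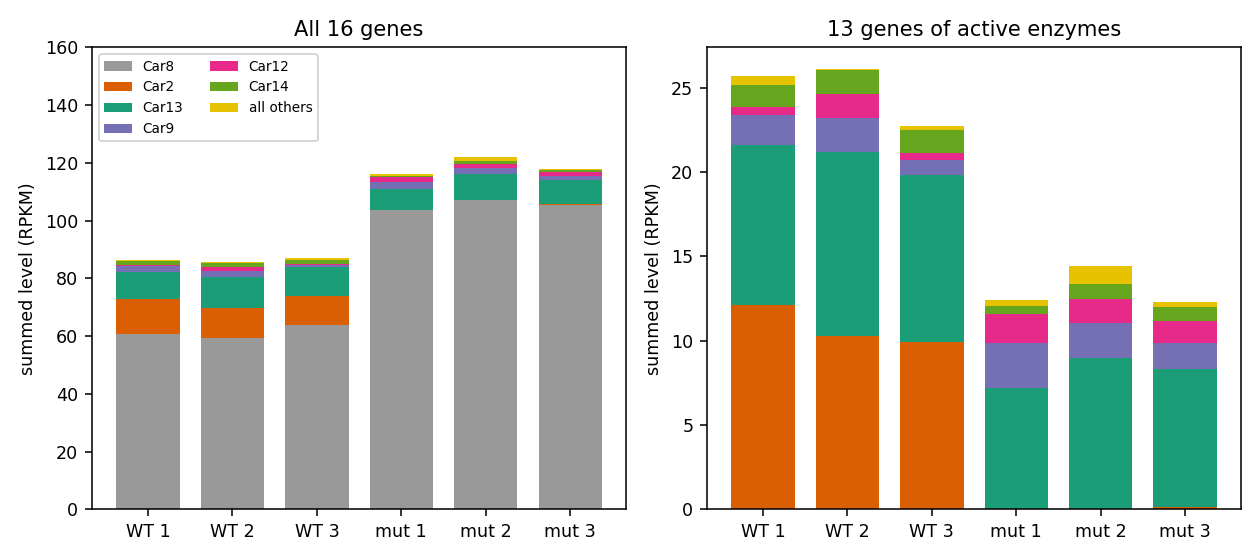
Summed level per length (RPKM) in each library, stacked by gene, for all 16 carbonic anhydrase genes (left) and for the 13 genes of active enzymes (right), with WT for wild type and mut for mutant. The orange part of *Car2*, 9.90 to 12.1 RPKM in the wild type, was missing from the mutant columns, and *Car13* made up the largest part of what remained at the right.

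Of the 6 family genes that were not chosen, *Car14*, for a membrane enzyme, passed the filter on low counts. It had 66.6, 71.8 and 68.4 normalized counts in wild type 1, 2 and 3, against 20.7, 42.6 and 42.0 in mutant 1, 2 and 3. The groups did not overlap, but the difference missed the threshold (log2 fold change -0.97, SE 0.39, adjusted p = 0.0747, edgeR). *Aph1a*, which runs on the other strand, shares 17.5% of its exon bases. The mitochondrial *Car5a* and *Car5b*, the secreted *Car6*, the inactive *Car10* and the membrane-anchored *Car15* had between 0 and 15 reads in any library.

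*Car2* belongs to a cluster of carbonic anhydrase genes on chromosome 3, in the order *Car13*, *Car1*, *Car3* and *Car2*. Within 500 kb on either side of *Car2*, 12 other genes are annotated, 9 of them in the count tables. *Slc7a12*, *Car1*, *Gm9733* and *Sirpb1a* were at 0 in all 6 libraries, and *Car3* had 6 reads in all. *Lrrcc1* had a log2 fold change of 0.01 (SE 0.11, adjusted p = 0.962), and *E2f5*, a transcription factor of the cell cycle, of 0.03 (SE 0.09, adjusted p = 0.847). *1810022K09Rik* had 534, 491 and 619.7 normalized counts in wild type and 659, 683 and 622 in mutant libraries, and it did not pass the test (log2 fold change 0.26, SE 0.13, adjusted p = 0.153).

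**Figure D3:**
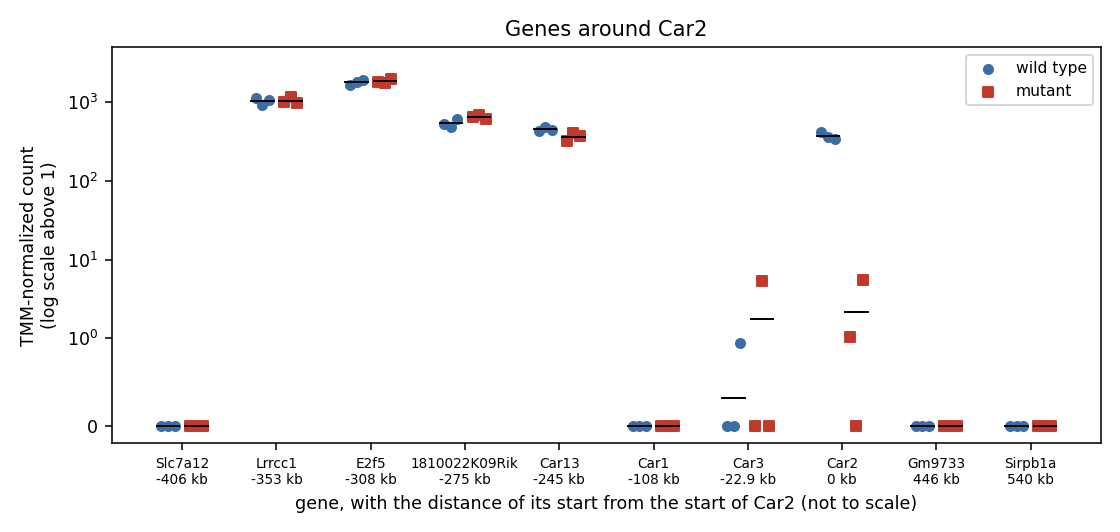
TMM-normalized counts in each library (circles, wild type; squares, mutant; bars, means of 3) of *Car2* and of the 9 genes of the count tables within 500 kb of it, in chromosomal order, on an axis that is logarithmic above 1. *Lrrcc1*, *E2f5*, *1810022K09Rik* and *Car13* had over 300 normalized counts in every library of both groups, and *Car2* fell to at most 5.53 in the mutants.

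Likeness of pattern was measured as the Euclidean distance between log2 CPM values centred over the 6 libraries, where 0 stands for the same pattern. Among all tested genes, those nearest to *Car2* were *Kdm5d* at a distance of 1.73, *Neurod1* at 2.17, *Serpina1c* at 2.51, *Uty* at 2.65 and *Zfp691* at 2.69. *Kdm5d* and *Uty* lie on the Y chromosome. *Neurod1*, a transcription factor of enteroendocrine cells, had 99.4, 113 and 57.0 normalized counts in the wild type and 0 in the 3 mutant libraries. *Serpina1c*, for a protease inhibitor of the blood plasma and one of several closely related copies whose reads can be split, had 400.4, 337 and 351 in the wild type and 5.18, 2.13 and 0 in the mutants. *Zfp691* had 81.6, 115 and 102 in the wild type and 1.04, 1.06 and 5.53 in the mutants.

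The genes nearest to *Car8* were *Twf1* at 0.0961, *Calml4* at 0.105, *Rp9* at 0.105, *Nfu1* at 0.110 and *Tmem37* at 0.113. They lie on chromosomes 15, 9, 9, 6 and 1 and thus not on that of *Car8*. Their log2 fold changes, between 0.72 for *Rp9* and 0.83 for *Twf1*, enclosed that of *Car8*. A close fold change follows from picking the nearest patterns over the same 6 libraries, also for the genes nearest to *Car2*, so nothing is read from it. *Calml4*, for a calmodulin-like protein of the brush border, had 2364 ± 177 normalized counts in wild type, against 3981 ± 171 in mutant libraries (SD, n = 3 each).

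Lists of genes whose products work beside carbonic anhydrases were followed in the same fit. Of 15 genes that carry bicarbonate or chloride, 10 were tested (median log2 fold change -0.35), and 0 were called by edgeR or by DESeq2, and 8 of the 10 had an unadjusted p under 0.05. Of all 12501 genes tested, 40.3% had such a p, and 8.62% were called, the share to set beside each list below. *Cftr*, the chloride and bicarbonate channel, had 1125 ± 110.5 normalized counts in wild type, against 1529 ± 148 in mutant libraries, and its log2 fold change of 0.44 (adjusted p = 0.00598) missed the fold criterion. *Slc26a3*, the chloride and bicarbonate exchanger of the intestinal brush border, had 8.09 ± 8.95 and 39.2 ± 2.98 normalized counts (log2 fold change 2.25, adjusted p = 0.0413). *Slc4a2*, a bicarbonate exchanger of the basolateral membrane, had 414 ± 84.8 and 269 ± 51.8 (log2 fold change -0.63, adjusted p = 0.0232), and its groups overlapped.

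Of 13 genes for proton and lactate transport, 6 were tested (median log2 fold change -0.24), and 0 were called by edgeR or by DESeq2, with 4 of the 6 at an unadjusted p under 0.05 (40.3% of all tested genes). *Slc9a3r1*, a scaffold protein of the brush border, had 5496 ± 334 normalized counts in wild type, against 4333 ± 179 in mutant libraries, and its log2 fold change of -0.34 (adjusted p = 0.00273) also missed the fold criterion. *Slc16a1*, the lactate and proton carrier, had a log2 fold change of 0.26 (adjusted p = 0.0271).

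CAR8 acts on the IP3 receptor, the calcium channel that phospholipase C opens through its product IP3. The receptor genes *Itpr1*, *Itpr2* and *Itpr3* had log2 fold changes of 0.15, -0.41 and -0.14, each with overlap between the groups and none called. Of 13 genes for receptors and phospholipases, 11 were tested (median log2 fold change -0.35), and *Plcd1* was the 1 gene called by edgeR, as it was by DESeq2. Over all tested genes 8.62% were called, so nothing is read from this count. *Plcd1*, a phospholipase C, fell from 599, 469 and 422 normalized counts in wild type 1, 2 and 3 to 283, 259.8 and 281 in mutant 1, 2 and 3 (log2 fold change -0.86, SE 0.16, adjusted p = 0.00135). Without wild type 1 it was no longer called and 0 genes of the list were, and without wild type 3 the list had 3 called genes.

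*Car9* is a textbook target of the hypoxia response, of which 17 other genes were tested. Their median log2 fold change was -0.05, with 7 above 0 and 10 below, and 0 were called by edgeR or by DESeq2. An unadjusted p under 0.05 was reached by 7 of the 17 genes and by 40.3% of all tested genes. *Slc2a1*, a glucose transporter, had a log2 fold change of 0.38 (adjusted p = 0.00206). *Bnip3*, of mitochondrial turnover, had 0.37 (adjusted p = 0.00548) and *Ldha*, of lactate production, 0.28 (adjusted p = 0.00173). All 3 missed the fold criterion, and all 3 lay above 0, where 10 of the 17 genes lay below. Of those below, *Kdm3a* had -0.47 (adjusted p = 0.0245, edgeR) and *Egln1* -0.39 (adjusted p = 0.0829, edgeR). The log2 fold change of *Car9*, 0.42, came with overlapping groups and was 0.15 without wild type 3. Whether *Car9* moved with any of these genes was not tested.

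**Figure D4:**
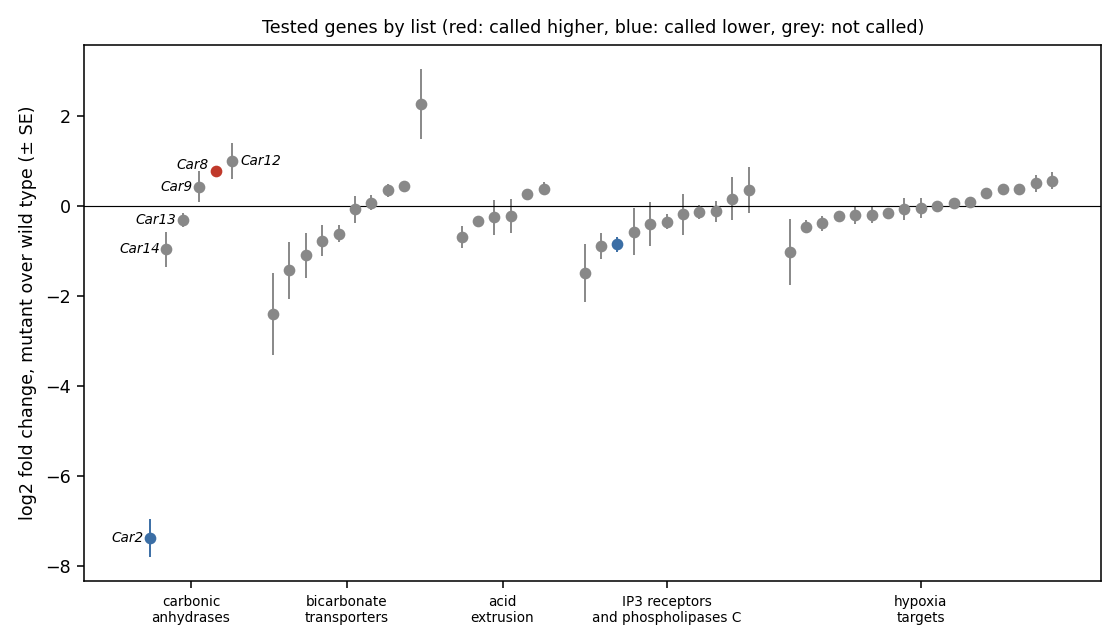
Log2 fold change of mutant over wild type (points, with SE bars from the fit) for each tested gene of the carbonic anhydrase family and of the 4 lists, in rising order within a list. *Car2* stood at -7.38, *Car8* (red) and *Plcd1* (blue, among the phospholipases C) were the other called genes, and all the tested transporters, proton carriers and hypoxia targets were grey.

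Markers of other cell types were followed because *Car2* is also made outside the intestinal epithelium. The 14 stomach genes summed to 117 to 128 CPM in wild type, against 17.2 to 25.5 CPM in mutant libraries, the same direction as *Car2*. Of 9 tested stomach genes, 8 had a log2 fold change below 0 and 4 were called lower, namely *Cldn18*, *Nkx6-3*, *Ctse* and *Vsig1*. The study lists *Nkx6-3* among transcription factors of enteroendocrine cells, so it does not mark the stomach alone. Of all tested genes, 45.7% had a log2 fold change above 0 and 5.83% were called lower. *Sox2* had 7 to 12 reads in wild type and 0 in mutant libraries. *Muc6* was at 0 in all 6 libraries. The part of cells with a stomach programme in the *Car2* counts was not tested.

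Red blood cells carry much CAR1 and CAR2. Of the 14 blood genes in the tables, 8 were at 0 in all 6 libraries, among them *Gata1*, *Tal1* and *Ptprc*, and the whole list summed to 2.21 to 3.07 CPM in wild type, against 0.600 to 1.47 CPM in mutant libraries. The embryonic globin gene *Hbb-y* had 22, 30 and 21 reads in wild type and 4, 5 and 6 reads in mutant libraries. Both the list's sum and *Hbb-y* were thus lower in the mutants, as was *Car2*, and the part of blood cells in the *Car2* counts was not tested. The adult globin genes, at 0 as well, have near-identical copies, and reads that map to several places were not counted.

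Pancreas genes summed to 23.4 to 28.0 CPM in wild type, against 18.3 to 22.7 CPM in mutant libraries. *Ptf1a*, *Nkx6-1*, *Ins1* and *Ins2* were at 0 throughout. *Pdx1* was called lower, at 209 ± 15.6 normalized counts in wild type, against 48.9 ± 7.73 in mutant libraries. The study lists *Pdx1* too among transcription factors of enteroendocrine cells, so it does not mark the pancreas alone. Of the other tested pancreas genes, *Cela1* (log2 fold change 0.52) and *Mnx1* (0.05) lay above 0 and *Prox1* (-1.46) below, none of them called. The 7 posterior gut genes summed to 5.84 to 7.49 CPM and 2.49 to 3.65 CPM. The 10 liver genes summed to 891 to 959 CPM in wild type, against 1052 to 1184 CPM in mutant libraries. *Cps1*, which the intestine also expresses, had the most counts of the list and was called higher. It had 8879 ± 1187 normalized counts in wild type, against 13553 ± 1143 in mutant libraries (SD, n = 3 each). Of 7 tested liver genes, 3 had a log2 fold change above 0 and 4 below, so the higher sum does not describe the list as a whole. *Serpina1a* and *Fgb* were called lower, *Ahsg* was at 0 and *Alb* had no more than 6 reads. Over all tested genes, 2.78% were called higher and 5.83% lower. Mesenchyme and muscle genes summed to 68.9 to 84.0 CPM and 53.8 to 79.4 CPM, and neuronal and glial genes to 13.6 to 18.1 CPM and 12.5 to 17.9 CPM, both with overlap. The part of any of these lists in the levels of the carbonic anhydrase genes was not tested.

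**Figure D5:**
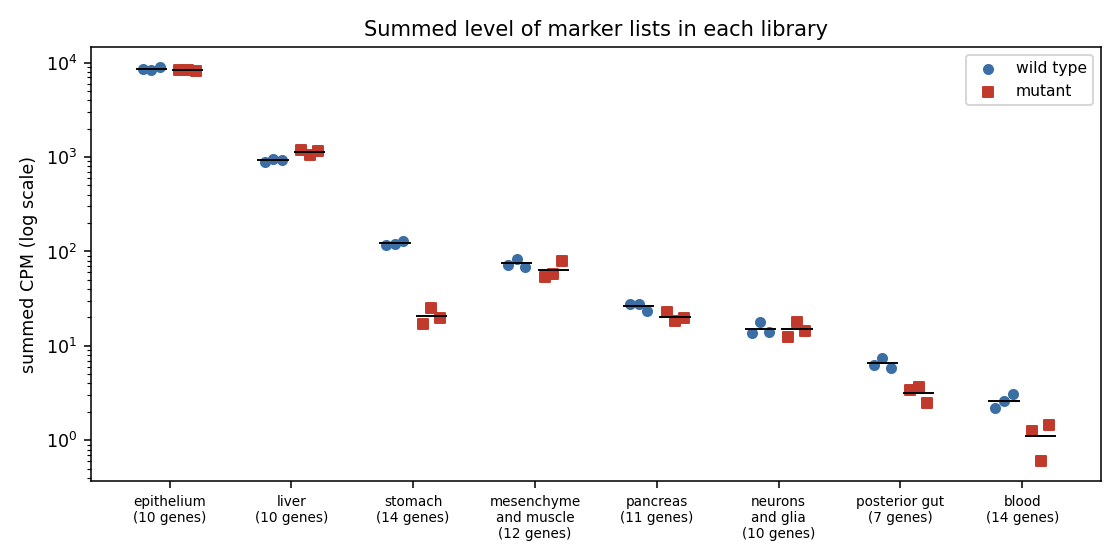
Summed level (CPM) of 8 marker lists in each library on a logarithmic axis (circles, wild type; squares, mutant; bars, means of 3). The stomach list lay at 117 to 128 CPM in wild type, against 17.2 to 25.5 CPM in mutant libraries, and the blood list was the lowest in every library.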

How the data were processed

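The authors mapped reads to the mouse genome build mm9 with STAR 2.5.2b and used featureCounts 1.5.1 to count reads that mapped uniquely, per the submitters' processing notes. They deposited raw read counts, without normalization, in 1 table per library, and these counts were used here. The strand setting of the counting is not given in the sources used here, and the authors' own DESeq2 analysis was not used.

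Counts were analysed in R 4.3.3 with edgeR 4.0.16 (TMM, filterByExpr, quasi-likelihood test on genotype, Benjamini-Hochberg adjustment), with each library as a replicate. The SE of a log2 fold change is its size divided by the square root of F. The edgeR and DESeq2 fits were also run on simulated counts that gave all genes the same dispersion (0.0209). That setting does not copy the spread of single genes, so nothing is read from it here. RPKM were computed here with exon lengths from the GENCODE annotation of mm9, which named 94.1% of the 23366 genes, and log2 CPM with a prior count of 2. The authors counted reads on a UCSC gene model, so counts and lengths come from different annotations. Levels and shares compared between genes carry that limit. With the longest transcript as length, the *Car2* share of the wild type family level was 12.3%, against 12.5% with the union of exons. Between libraries of a group, the chi-square of the counts was 6.30 to 17.9 per gene, where sampling noise alone gives about 1, so no library was a copy of another. Coding sequences were aligned with Biopython 1.88 (that of *Car8* is not reported here), and tables and figures were made with Python 3.11.15 and matplotlib 3.10.9. Exact counting intervals are at 95%, and a count of 0 is given a floor of 3 counts per library.

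The carbonic anhydrase genes, the lists and the rule for naming genes were chosen with earlier results of these data known. The rule names the family, called genes of the lists, genes within 500 kb of *Car2*, and the 5 genes nearest in pattern to *Car2* and to *Car8*. Genes of the lists that were not called, and single markers, were named after their values were seen. Of 15 blood markers, 14 are in the tables. The alternatives were DESeq2 1.42.0, other scalings, filters and criteria, other lengths, the replicate number as a block, and the fit without each library. For *Car14* they were added after seeing the data.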

Additional observations from a re-analysis of the deposited data

How the results depend on the processing

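The direction of *Car2*, *Car8*, *Car9*, *Car12*, *Car13* and *Car14* was the same under every alternative that was run. With each library left out in turn, log2 fold changes lay between -9.18 and -6.81 for *Car2*, 0.76 and 0.83 for *Car8*, 0.15 and 0.64 for *Car9*, 0.71 and 1.83 for *Car12*, -0.39 and -0.23 for *Car13* and -1.14 and -0.70 for *Car14*. Of the 5 carbonic anhydrase genes in the fit, 2 were called, 2 to 3 with a library left out, the third being *Car12* without wild type 2. A log2 fold change of at least 1 left 1 called gene (*Car2*), and an RPKM of at least 50 left 1 (*Car8*). With no minimum log2 fold change, 1 bicarbonate transporter (*Cftr*), 1 acid extrusion gene (*Slc9a3r1*) and 3 hypoxia targets were called, where the usual criteria called 0 of each, and with a library left out the range was 0 to 1 in each list. The single calls came without wild type 2, wild type 3 or mutant 1 for the transporters, without wild type 3 for acid extrusion, and without wild type 3 or mutant 2 for the hypoxia targets. Of the IP3 receptor and phospholipase C genes, where 1 was called, 0 were called at a log2 fold change of at least 1 or an RPKM of at least 50, and 0 to 3 with a library left out. The *Car2* share of the wild type family level was 12.5%, with 11.7% to 13% when a library was left out, 6.64% with no division by length and 43.3% among the genes of active enzymes. Same-numbered libraries did not deviate together (correlations of 0.00971, -0.0449 and -0.0179). With deviations taken from means of 3 libraries, this cannot settle whether the numbers pair them. With the replicate block 2 of the carbonic anhydrase genes were called, and over all genes 339 higher and 691 lower in place of 348 and 729. Library size as the only scaling moved the median of all genes from -0.04 to -0.15 and the higher share of calls from 32.3% to 17.3% (200 higher, 957 lower). The other counts of calls past 1.5 times were 902 higher with no minimum log2 fold change, 85 higher and 284 lower at a log2 fold change of at least 1, and 107 higher and 29 lower at an RPKM of at least 50. Leaving out a library gave 260 to 516 higher and 405 to 867 lower. The few reads of *Car3*, *Car7* and *Car11* allow no direction, and 3 libraries per group limit what can be seen of *Car9* and *Car12*.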
